A study of Bos taurus with 2 samples.

Results

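GFP-high and GFP-negative cells are the ends of the range of GFP transcript counts in single cells of bovine chimeric embryos. Cells with 3000 to 12000 UMIs (molecular tags that count each captured RNA once) and 500 or more detected genes were kept. GFP-high cells had 5 or more GFP UMIs and GFP-negative cells had 0. Of 4437 cells in the table, 2934 lay in this window; 1456 were GFP-high, 463 were GFP-negative and 1015, with 1 to 4 GFP UMIs, entered neither side. The sides were chosen by GFP, so every GFP level below is a description without a test, and GFP itself was left out of the summed totals and fits that compare other genes, while depths and GFP levels count it.

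The embryos were flushed on day 25 of development and had incorporated bovine embryonic stem cells (bESC); no allele, strain or treatment beyond that is named for them. They were minced, digested with papain and DNase I, strained, sorted and loaded on a 10x Genomics 3' droplet system. The sources used here do not give the gate of the sort, the GFP construct or its promoter, so what GFP marks is not established here and GFP-negative is not a synonym for host. Both samples are replicates, 1 and 2, of this single group, and no embryo without stem cells is among them. The labels do not say that the replicates came from separate embryos, so p-values measure only the spread between these samples, which may be technical. The series names the embryonic and extraembryonic differentiation of bovine formative embryonic stem cells as its subject.

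In a chimera, injected stem cells mix with the cells of a host embryo, and a reporter such as GFP lets their descendants be followed if the reporter stays active. A reporter gene can be silenced, and its transcript can escape detection in a cell with few captured molecules. At the stage studied the neural plate has folded into a neural tube, in which SOX2 and PAX6 mark progenitors, and STMN2, TUBB3 and DCX mark young neurons. The collagen genes COL1A1 and COL3A1 mark mesenchyme, globin genes mark primitive red cells, and prolactin-related proteins mark ruminant trophoblast.

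The deposited table held 1973 cells with 11182089 UMIs in replicate 1 and 2464 cells with 15427708 UMIs in replicate 2. Detected genes ranged from 201 to 3999 per cell, and mitochondrial counts reached at most 4.98%. Doublets were not called here and the upper limit of 12000 UMIs was the only guard against them. In both replicates 6 barcodes occurred, and 2 cells of the compared sides carried such a barcode. Levels are given as CPM (UMIs scaled to a fixed library total) of the cells of a side summed within a replicate. CPM of a 3' assay is not scaled by transcript length, and genes are compared between sides, not with each other. A sum cannot tell fewer cells that hold an RNA from less of it per cell, so the number of cells with a UMI is given where few held it.

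GFP-high cells made up 44.7% of the window in replicate 1 (583 of 1304 cells, exact Clopper-Pearson 95% interval 42.0 to 47.5) and 53.6% in replicate 2 (873 of 1630, 51.1 to 56.0), a mean of 49.1% ± 6.26 (SD, n = 2). GFP-negative cells made up 16.6% (216 cells, 14.6 to 18.7) and 15.2% (247 cells, 13.4 to 16.99), a mean of 15.9% ± 0.998 (SD, n = 2). The intervals cover counting error only, and the shares are shares of sorted cells. The median GFP-high cell held 14 GFP UMIs in replicate 1 and 15 in replicate 2, with single cells reaching 443 and 224. Just outside the limit, 74 and 63 cells held 4 GFP UMIs, with median RPL/RPS shares of 3.90% and 3.47%; just inside, 45 and 60 cells held 5 GFP UMIs, with shares of 4.18% and 6.003%. RPL/RPS stands for the 83 cytosolic ribosomal protein genes.

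The sides differed in depth and in ribosomal content as well as in GFP. GFP-high cells had a median of 7938 and 8325 UMIs in replicates 1 and 2, and GFP-negative cells had 5065 and 4863. The median RPL/RPS share was 12.9% and 17.9% of UMIs in GFP-high cells, against 2.04% and 2.01% in GFP-negative cells. The median share of mitochondrial counts was 0.297% and 0.261% in GFP-high cells and 0.408% and 0.411% in GFP-negative cells. Cells with 1 to 4 GFP UMIs resembled GFP-negative cells in depth (5152 and 5212 UMIs) and in ribosomal share (2.43% in both replicates).

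GFP followed the ribosomal share over most of its range. The summed GFP level was 262 and 254 CPM in cells under 2% RPL/RPS, 703 and 734 CPM from 2 to 5%, and 1477 and 1600 CPM from 5 to 10%. It was 3472 and 2991 CPM from 20 to 30%, and 2552 and 2432 CPM above 30%. GFP-high cells went from 8.05% and 5.57% of cells in the lowest of these bins to 91.4% and 92.6% from 20 to 30%. GFP-negative cells made up 35.2% and 40.3% of the lowest bin, 4.61% and 3.83% from 20 to 30%, and 17.8% and 9.21% above 30%, where the intervals are wide. At a like depth the order was the same: at 3000 to 4999 UMIs, GFP stood at 667 and 593 CPM in cells under 10% RPL/RPS and at 2350 and 2082 CPM in cells with 10% or more.

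**Figure D1:**
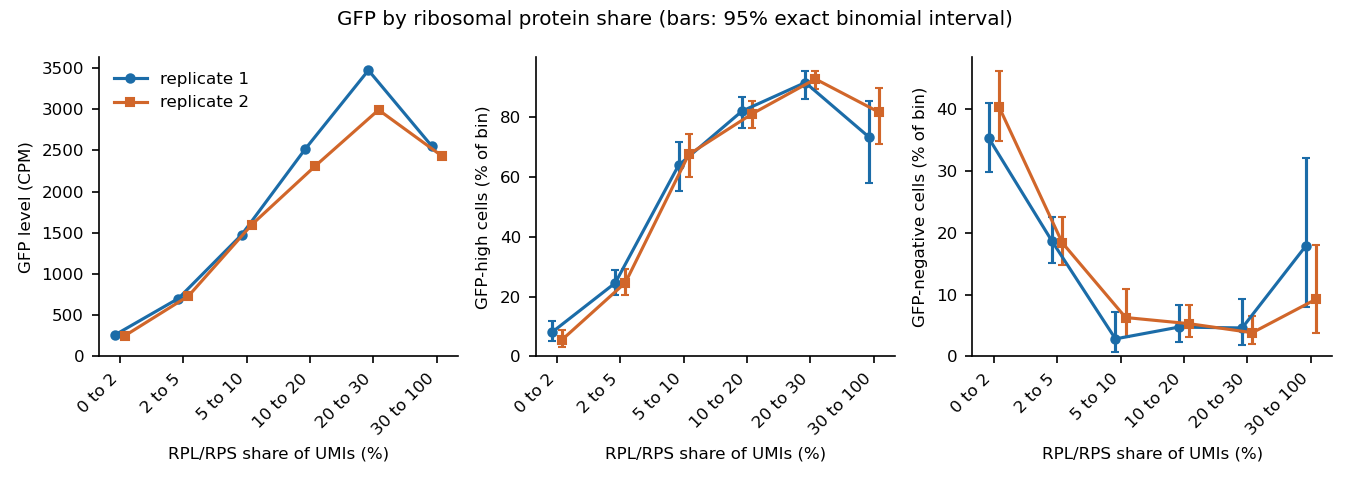
GFP level (left, CPM), percent of cells that are GFP-high (middle) and percent that are GFP-negative (right) against the RPL/RPS share of UMIs, per replicate, for cells with 3000 to 12000 UMIs. Bars are exact 95% binomial intervals; GFP-high cells make up 8.05% and 5.57% of the lowest bin and 91.4% and 92.6% of the 20 to 30% bin.

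In all kept cells, most neuron and neural progenitor markers, glycolytic genes and protein synthesis genes tested took a larger share of UMIs in GFP-high than in GFP-negative cells. Most collagen, globin, placental, mitochondrially encoded, and long neuronal and adhesion genes took a smaller share. The comparison covered nearly the whole transcriptome. Of 12379 genes tested with edgeR's quasi-likelihood test (replicate as a block, Benjamini-Hochberg adjusted p of 0.05), 3360 (27.1%) were higher and 2852 (23.0%) lower in GFP-high cells, 50.2% in all; 56.6% had an unadjusted p below 0.05. The 2 replicates of each side did not overlap for 79.8% of the genes tested, so a gene whose sides do not overlap is the common case. The median log2 fold change of all genes tested was -0.01; without TMM scaling it would be -0.29.

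Genes of neurons were among those with the largest rise. GNG3, a G protein subunit of neurons, stood at 3.30 and 1.45 CPM in GFP-negative cells of replicates 1 and 2 and at 61.5 and 55.0 CPM in GFP-high cells. Both GFP-high values were far above both GFP-negative values (log2 fold change 4.91, SE 0.328, adjusted p = 8.12e-09, edgeR). A GNG3 UMI was found in 4 and 2 GFP-negative cells and in 108 (18.5%) and 163 (18.7%) GFP-high cells; at these depths a cell without a UMI may still hold the RNA. PENK, the opioid precursor proenkephalin, went from 4.13 and 5.81 to 159 and 83.5 CPM (log2 4.82) but had a UMI in 18 and 21 GFP-high cells.

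CRABP1, a retinoic acid binding protein of the early nervous system, was the most abundant of the leading genes. It stood at 255 and 318 CPM in GFP-negative and 1762 and 3198 CPM in GFP-high cells (log2 3.35, SE 0.134, adjusted p = 1.53e-08, edgeR). The sides did not overlap, although the GFP-high replicates differed from each other more for CRABP1 than for GNG3. The beta tubulin gene TUBB2B went from 22.3 and 18.9 to 213 and 165 CPM, and SHH, the morphogen of floor plate and notochord, from 5.78 and 8.72 to 66.1 and 80.0 CPM (log2 3.47 and 3.61). Other leading genes by the same rule were LOC508098, LOC104974975, PCSK1N, EEF1A2, CTXN1 and BEX4, with log2 fold changes from 3.51 to 4.18. EEF1A2 is the translation elongation factor form of neurons and muscle.

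Of the neural progenitor list, 12 markers, 11 were tested; 10 were higher and 0 lower in GFP-high cells, with a median log2 of 0.98. SOX2, which maintains neural progenitors, stood at 131 and 118 CPM in GFP-negative and 317 and 334 CPM in GFP-high cells. This was a rise of 1.68 on the log2 scale (SE 0.110, adjusted p = 6.8e-09, edgeR), with no overlap. VIM, an intermediate filament of progenitors and of mesenchyme, rose from 430 and 725 to 2040 and 2500 CPM (log2 2.29). HES5, a Notch target of progenitors, rose from 36.3 and 32.0 to 116 and 110 CPM (log2 2.01). PAX6 was the member that did not pass: it stood at 134 and 98.1 CPM in GFP-negative and 120 and 103 CPM in GFP-high cells (log2 0.23, adjusted p = 0.139, edgeR), and its sides overlapped.

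Of 14 neuron markers, 11 were tested; 8 were higher and 0 lower (median log2 1.26). STMN2, a microtubule regulator of growing axons, rose from 153 and 150 to 903 and 946 CPM (log2 2.89, SE 0.103, adjusted p = 2.13e-11, edgeR). TUBB3 rose from 31.4 and 35.6 to 262 and 289 CPM (log2 3.32). DCX passed the test with a small difference, log2 0.39, although its levels overlapped (128 and 131 CPM against 154 and 126 CPM), and DESeq2 did not call it (adjusted p = 0.233). MAP2, a dendritic microtubule protein and the most abundant member, stood at 1008 and 815 CPM against 863 and 805 CPM and did not pass (log2 0.16, adjusted p = 0.148, edgeR).

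Energy and protein synthesis genes moved nearly as whole lists. Of 23 glycolysis genes, 18 were higher and 1 lower (median log2 1.67). ENO1, an enzyme of lower glycolysis, rose from 301 and 309 to 1705 and 1994 CPM (log2 2.88, SE 0.0975, adjusted p = 1.67e-11, edgeR); the lower one was SLC16A1, a lactate transporter, at 219 and 180 against 97.3 and 79.4 CPM. All 24 nuclear genes of oxidative phosphorylation that were tested, all 21 cytosolic translation factors and all 82 ribosomal protein genes tested were higher, with medians of 1.59, 1.49 and 1.62. Of 20 proteasome and protein turnover genes 19 were higher (median 1.501). EEF1A1, the main elongation factor, went from 1612 and 1979 to 4526 and 5170 CPM. The ribosomal share moves with GFP, as given above, so these lists and the RPL/RPS share are not separate observations.

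The mitochondrially encoded genes went the other way. Of 13, 12 were lower (median log2 -0.72), and their summed level was 8876 and 8588 CPM in GFP-negative against 4499 and 3926 CPM in GFP-high cells. Of 24 long neuronal and adhesion genes 18 were lower and 0 higher (median -0.63). ERBB4, a receptor of neuregulins, fell from 2006 and 1798 to 829 and 721 CPM (log2 -1.01, SE 0.0834, adjusted p = 8.75e-08, edgeR), and NRXN3, a presynaptic adhesion protein, from 924 and 676 to 244 and 233 CPM (log2 -1.44). The sides did not overlap for either gene.

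Most tested markers of mesenchyme, erythroid cells, trophoblast and yolk sac were lower. For some of them few GFP-negative cells held most of the RNA on that side. Of 11 mesenchyme markers tested 8 were lower and 1 higher (median log2 -1.96). COL1A1, a chain of type I collagen, stood at 572 and 1019 CPM in GFP-negative and 20.6 and 43.0 CPM in GFP-high cells (log2 -4.37, SE 0.115, adjusted p = 1.64e-12, edgeR). Its UMIs came from 32 of 216 and 51 of 247 GFP-negative cells. All 6 erythroid markers tested were lower (median -2.70), as were 21 of 23 extracellular matrix genes (median -1.35) and 3 of 4 trophoblast markers tested. Of 3 yolk sac and hepatic endoderm markers tested, APOA1 (log2 -2.61) and RBP4 (-2.49) were lower and TTR, of yolk sac, liver and choroid plexus, was higher (2.48 and 1.45 against 14.2 and 50.7 CPM). TWIST1, a mesenchymal transcription factor, was the single mesenchyme marker that was called higher (12.4 and 18.9 against 27.2 and 32.9 CPM); it was not called under 10% RPL/RPS, with matched UMI totals or by DESeq2 (adjusted p = 0.051).

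The 12 leading lower genes of this comparison held the prolactin-related proteins PRP1, PRP2 and PRP4, which ruminant trophoblast makes, with the calcium binding protein S100G, WFDC2, the atrial myosin light chain MYL7, the water channel AQP1, KLK1, PHLDA2, A2M, COL1A1 and LOC617406. Their log2 fold changes ranged from -8.74 for PRP2 to -4.20 for A2M. PRP2 rested on 1 and 3 GFP-negative cells and 61.7% of its UMIs came from 1 cell; for PRP1, PRP4, S100G, LOC617406, MYL7 and PHLDA2 a single GFP-negative cell also held over 50% of the UMIs. Members of the prolactin-related family are near-identical, as are the globins, so how reads were divided among them is uncertain. PRP1 stood at 75.2 and 177 CPM in GFP-negative cells. In cells with 1 GFP UMI, which entered neither side, it stood at 427 and 2.49 CPM. COL1A1, A2M, KLK1 and AQP1 were spread over more cells, with at most 15.4% of GFP-negative UMIs in 1 cell.

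The lower mesenchymal, globin and yolk sac levels went with a small set of cells. Cells were counted as rich in a list when its markers took 1% or more of their UMIs. Mesenchyme-rich cells numbered 12 and 31; 9 and 21 of them were GFP-negative and 0 and 2 were GFP-high. Cells rich in yolk sac and hepatic endoderm markers numbered 9 and 24, of which 7 and 12 were GFP-negative and 0 and 3 were GFP-high. Erythroid-rich cells numbered 5 and 8, with 2 and 4 GFP-negative and 0 GFP-high. Of 56 and 109 neuron-rich cells, 51 and 95 were GFP-high and 2 and 2 were GFP-negative. The makeup depended on the limit: at 0.5% of UMIs, 1 of 16 and 16 of 47 mesenchyme-rich cells were GFP-high and 10 and 21 GFP-negative, and of 207 and 257 neuron-rich cells 61.8% and 65.8% were GFP-high and 15.5% and 10.9% GFP-negative, the latter beside 16.6% and 15.2% of the whole window. Near the limit, at 0.8 to 1.2% of UMIs, lay 180 cells for the neuron list and 6 for mesenchyme.

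Without the cells rich in any non-neural list, 204 and 220 GFP-negative cells remained, and 3697 genes (30.1% of 12293) were higher and 3153 (25.6%) lower. COL1A1 then had a log2 fold change of 0.10 (adjusted p = 0.713, edgeR), COL3A1 rose by 0.89 and APOA1, an apolipoprotein of yolk sac and liver, by 2.29, so that the direction in all cells was reversed for the latter pair. These lists chose the cells that were taken out, so their own genes had to move. SOX2 (1.57), STMN2 (2.82) and ENO1 (2.96) changed by less than 0.15 on the log2 scale.

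**Figure D2:**
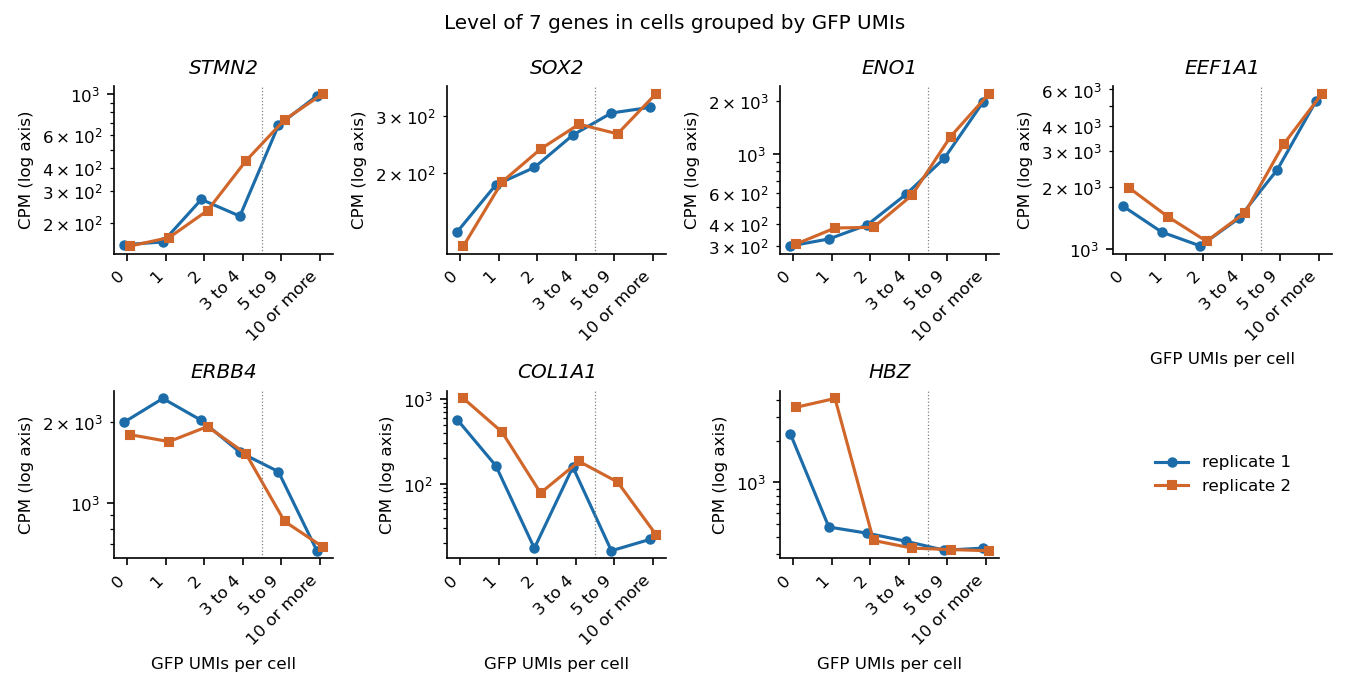
Level (CPM, log axis) of 7 genes in cells of the window grouped by GFP UMIs per cell, per replicate; the dotted line marks the lower limit of GFP-high cells. ENO1 goes from 301 and 309 CPM at 0 GFP UMIs to 1970 and 2207 CPM at 10 or more, and HBZ goes from 2259 and 3525 CPM at 0 to 321 and 325 CPM at 5 to 9, with 4081 CPM at 1 in replicate 2.

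Levels between the ends showed whether a gene followed GFP in steps or only separated its lowest class. ENO1 stood at 301, 329, 396, 590, 948 and 1970 CPM in replicate 1 in cells with 0, 1, 2, 3 to 4, 5 to 9 and 10 or more GFP UMIs, an increase at each step. ERBB4 stood at 2006, 2459, 2035, 1547, 1309 and 662 CPM over the same cells and was lowest in the highest class in both replicates. COL1A1 stood at 572 and 1019 CPM at 0 and at 22.1 and 25.1 CPM at 10 or more, with no even course between. HBZ, an embryonic globin, stood at 2259 and 3525 CPM at 0, at 474 and 4081 CPM at 1 and at 321 and 325 CPM at 5 to 9, so in replicate 2 it was highest at 1 GFP UMI. It had a UMI in 520 of 583 (89.2%) and 777 of 873 (89.0%) GFP-high cells, of which 0 were rich in erythroid markers. The share was 11 of 12 and 29 of 31 in mesenchyme-rich cells, which should lack globin, at median depths of 6748.5 and 8577 UMIs against 7938 and 8325. An HBZ UMI alone therefore does not mark a cell as erythroid. Whether it is background in GFP-high cells was not tested. GFP chose these classes, and they share the GFP-negative cells with the test above, so the series of values is a description.

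Among cells with a SOX2 UMI, 81 and 92 GFP-negative and 432 and 676 GFP-high cells, 2951 genes (25.6% of 11526) were higher and 2266 (19.7%) lower. Neuronal and metabolic genes differed between the sides within this set as well: the log2 fold changes were 3.22 for STMN2, 3.51 for ENO1 and 3.098 for EEF1A1, all called. A SOX2 UMI does not make a cell neural. It was also found in 5 of 19 and 8 of 44 cells rich in mesenchyme, yolk sac, trophoblast or erythroid markers. PAX6 stood lower in GFP-high cells there but did not pass (log2 -0.31, adjusted p = 0.110, edgeR). The RPL/RPS share differed within the set too, with medians of 2.02% and 2.08% against 14.9% and 19.9%.

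In cells under 10% RPL/RPS, 190 and 210 GFP-negative and 221 and 237 GFP-high cells, the neural difference was present with a narrower gap in ribosomal share (medians 1.90% and 1.83% against 4.22% and 4.99%). Of 10826 genes tested, 1623 (15.0%) were higher and 1114 (10.3%) lower. The log2 fold changes were 1.06 for SOX2, 2.29 for STMN2 and 1.87 for ENO1, all called. HBZ did not pass there (log2 -0.24, adjusted p = 0.0832, edgeR), and COL1A1 did (log2 -3.51).

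Matching went further: in each replicate the same number of cells was drawn from both sides within bins of 1000 UMIs and 2 percentage points of RPL/RPS share, 102 and 103 cells a side. This comparison was added after the results were seen. The median RPL/RPS share was then 2.60% and 3.74% in GFP-negative and 2.98% and 3.95% in GFP-high cells. Of 9203 genes tested, 106 (1.15%) were higher and 342 (3.72%) lower. Fewer cells entered, and the part of the smaller sums in the lower number of calls was not tested.

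Genes of the nervous system were among the 106. The log2 fold changes were 1.23 for SOX2 (adjusted p = 0.006, edgeR), 2.14 for STMN2, 2.83 for TUBB3, 2.29 for CRABP1, 2.03 for SHH and 2.59 for HES5, and all passed. Of 10 neural progenitor markers tested 5 were higher and of 9 neuron markers 5 were higher, with medians of 0.70 and 1.10. ENO1 rose by 1.16 and 3 of 20 glycolysis genes were higher (median 0.38). By contrast 0 of 24 oxidative phosphorylation genes passed in either direction (median -0.12), and EEF1A1 was at 0.05 (adjusted p = 0.888, edgeR). Translation factors had a median of 0.12 with 0 higher and 1 lower. The ribosomal protein genes, at a median of -0.05, were matched by construction. COL1A1 remained lower (log2 -5.95), and ERBB4, at -1.07, no longer passed (adjusted p = 0.166, edgeR).

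The comparison was repeated in the cells with 10% or more RPL/RPS counts, 26 and 37 GFP-negative and 362 and 636 GFP-high cells. In these cells SOX2, STMN4 and other neural RNAs were low or at 0 in GFP-negative cells, and collagen, globin, apolipoprotein and keratin RNAs were high there. These cells are a subset of those compared above, so the results are not independent of them. The sides were closer in depth (medians 6697 and 8842 UMIs in GFP-negative against 8865 and 9074.5 UMIs in GFP-high cells) and in RPL/RPS share (23.7% and 21.0% against 19.3% and 21.6%). Mitochondrial counts were higher in GFP-negative cells, at 1.97% and 0.788% against 0.262% and 0.243%. Of 11151 genes tested, 792 (7.1%) were higher and 1042 (9.34%) lower in GFP-high cells, and the sides did not overlap for 66.1%; 25.4% had an unadjusted p below 0.05. For 97.3% of the genes the fit took the spread wholly from the other genes, so these p-values do not rest on a gene's own replicates and can be too small; DESeq2 called 208 higher and 552 lower. The median log2 of all genes was 0.07, and 0.37 without TMM scaling.

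A UMI of SOX2, the progenitor factor, was found in 78.5% of GFP-high cells of replicate 1 and 78.1% in replicate 2. In GFP-negative cells it was found in 11.5% (3 of 26 cells, exact 95% interval 2.45 to 30.2) and 5.41% (2 of 37, 0.661 to 18.2). Mesenchyme-rich cells, which should lack SOX2, had one in 8.33% (1 of 12 cells, 0.211 to 38.5) and 9.68% (3 of 31, 2.04 to 25.8), at median depths of 6748.5 and 8577 UMIs; they overlap with these GFP-negative cells. In erythroid-rich cells the share was 3 of 5 and 4 of 8. In all cells rich in mesenchyme, yolk sac, trophoblast or erythroid markers it was 26.3% (5 of 19) and 18.2% (8 of 44). These reference cells were of any RPL/RPS share. Among the last set, those with 10% or more RPL/RPS had a SOX2 UMI in 0 of 10 (0 to 30.8%) and 4 of 32 cells (12.5%, 3.51 to 29.0). The reference cells do not fix a level of background. The GFP-negative shares are not told apart from it. Under 10% RPL/RPS the shares were 67.0% and 75.5% in GFP-high against 41.1% and 42.9% in GFP-negative cells, at median depths of 6814 and 6433 against 4945.5 and 4426.5 UMIs. Seen from SOX2, 284 of 312 (91.0%, 87.3 to 94.0) and 497 of 529 (94.0%, 91.6 to 95.8) SOX2-positive cells with 10% or more RPL/RPS were GFP-high. All cells of this class were mostly GFP-high too. The shares were 81.9% and 81.0% from 10 to 20% RPL/RPS, 91.4% and 92.6% from 20 to 30%, and 73.3% and 81.6% above. Of the SOX2-positive cells of this class with 3 or more SOX2 UMIs, 0 of 170 and 0 of 314 were GFP-negative. These counts allow shares of up to 1.76% and 0.955% by a floor of 3 counts, and the exact 95% intervals reach 2.15% and 1.17%. Under 10% RPL/RPS, 148 of 483 (30.6%) and 179 of 543 (33.0%) SOX2-positive cells were GFP-high. There 18 of 158 and 15 of 176 cells with 3 or more SOX2 UMIs were GFP-negative.

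**Figure D3:**
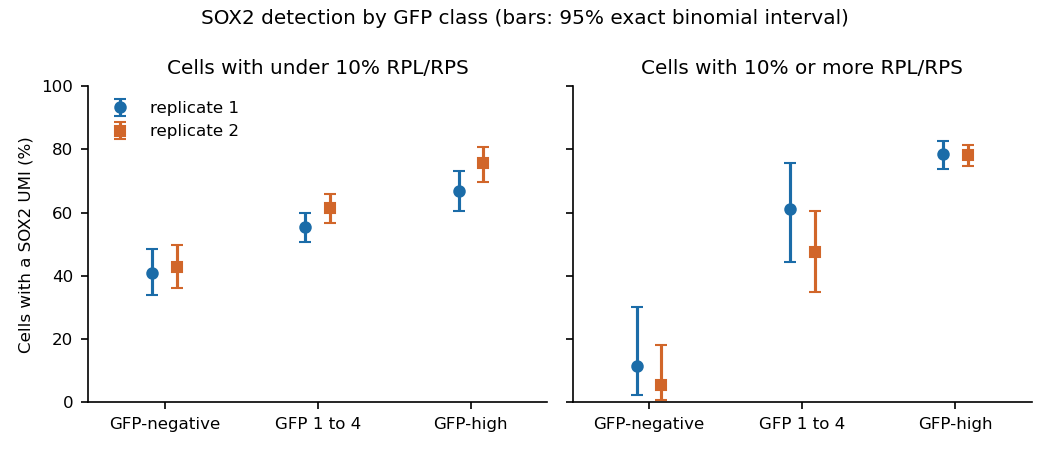
Percent of cells with a SOX2 UMI by GFP class, per replicate, in cells under 10% RPL/RPS (left) and with 10% or more (right). Bars are exact 95% binomial intervals; the GFP-negative cells on the right, at 11.5% and 5.41%, lie below every other class.

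As a level, SOX2 stood at 17.1 and 9.41 CPM in GFP-negative and 342 and 326 CPM in GFP-high cells with 10% or more RPL/RPS. It was higher by 4.44 on the log2 scale (SE 0.431, adjusted p = 1.04e-22, edgeR). Of 11 neural progenitor markers tested 10 were higher and 0 lower, with a median of 2.60, or 1.92 with genes without a GFP-negative count set at their lower bound. RFX4, a transcription factor of the neural tube, rose from 34.3 and 6.27 to 326 and 350 CPM (log2 4.04). VIM (log2 0.61) and PAX6 (45.7 and 12.5 against 101 and 86.1 CPM, log2 1.57) passed too, but neither was called by DESeq2 (adjusted p = 0.155 and 0.185) or with matched UMI totals. All 10 neuron markers tested were higher (median 3.67). GAP43, of axonal growth cones, rose from 22.8 and 18.8 to 434 and 472 CPM (log2 4.18), and MAP2 from 68.5 and 37.6 to 717 and 727 CPM (log2 3.55).

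The 12 leading higher genes here had 0 UMIs in the GFP-negative cells, so their fitted fold changes depend on a prior count and a lower bound is given. The bound sets 3 counts over the summed GFP-negative cells of both replicates. STMN4, a stathmin of neurons, was at least 17.3-fold higher, at 114 and 100.01 CPM in GFP-high cells. LMO3 was at least 15.6-fold higher, PHACTR1 12.9-fold, the neurofilament gene NEFM 12.7-fold, and the neural splicing factor SRRM4 12.03-fold. For NTM, NOL4, POU3F3, EEF1A2, GNG3 and CCK the bounds lay between 8.54-fold and 11.2-fold. DESeq2 gave the same direction but did not call STMN4, LMO3, PHACTR1, NEFM, SRRM4 or NTM, with adjusted p from 0.496 for STMN4 to 0.596 for NTM. NTM is a neural cell adhesion molecule, POU3F3 a transcription factor of neural cells and CCK a neuropeptide.

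Signalling lists went both ways, beside 7.1% of all genes tested higher and 9.34% lower in this class. FOXA2, a floor plate and endoderm factor, rose from 34.3 and 28.2 to 284 and 275 CPM (log2 2.88). SHH had 3 UMIs in GFP-negative cells and was 14.9-fold higher, with a counting interval of 5.08 to 72.4. HES6, which promotes neuronal differentiation, had 2 UMIs there and was 25.0-fold higher (6.90 to 207). Of 15 Notch pathway genes tested 5 were higher and 1 lower, and the lower one was the ligand JAG1. Of 24 WNT pathway genes 7 were higher and 6 lower, and of 26 BMP and TGF-beta genes 4 were higher and 8 lower, among them BMP4 (log2 -5.81). GATA3, a factor of trophoblast and of some neurons, rose from 103 and 90.9 to 446 and 412 CPM (log2 1.84).

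**Figure D4:**
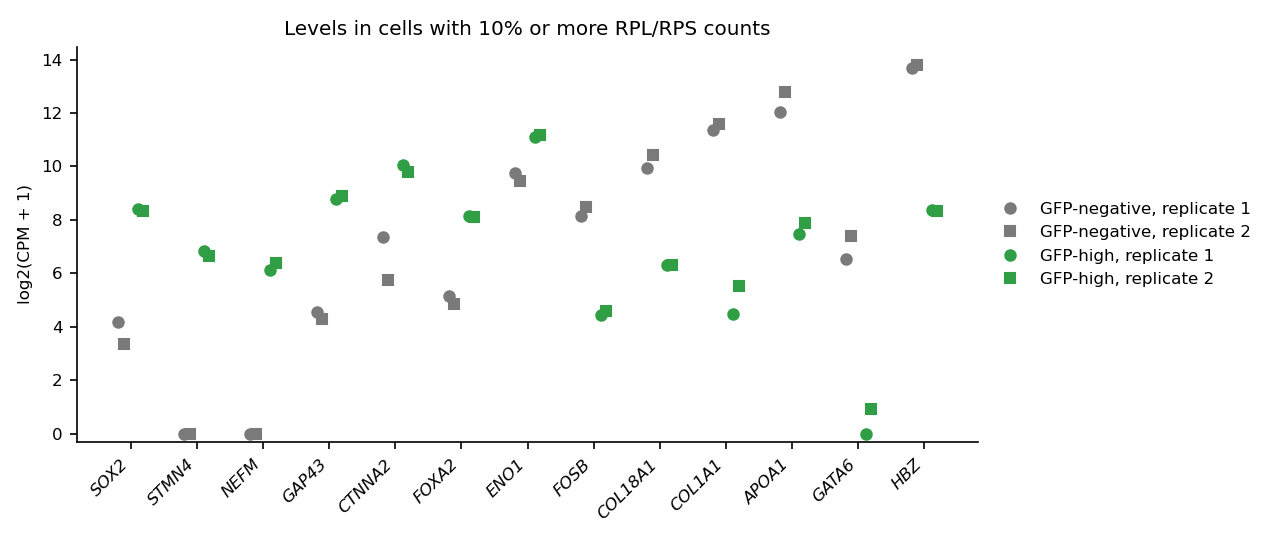
Level, as log2(CPM + 1), of 13 genes in cells with 10% or more RPL/RPS, per side and replicate. Neural genes (SOX2 to FOXA2) are higher in GFP-high cells and FOSB to HBZ are lower; STMN4 and NEFM lie at 0 in both GFP-negative sums.

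Most long neuronal and adhesion genes tested were higher in GFP-high cells of this class and lower under 10% RPL/RPS. In cells with 10% or more RPL/RPS, 15 of 22 tested were higher and 0 lower (median log2 1.56, or 1.41 at the bound), whereas under 10% 0 of 22 were higher and 14 lower (median -0.62). The difference of the differences, tested gene by gene, was higher for 16 of 22 and lower for 0, beside 6.76% and 13.8% of all genes. CTNNA2, a neuronal catenin, rose from 166 and 53.3 to 1073 and 879 CPM (log2 3.01), and its sides did not overlap. Its difference of the differences was 3.14 on the log2 scale (SE 0.27, adjusted p = 1.34e-08, edgeR's quasi-likelihood test).

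By the same rule the leading lower genes included EPCAM, WFDC2, PRP4, SOD3, C15H11orf34, GATA6, ACP5, HEPACAM2, MYL7, CCN4 and SLC26A4, with log2 fold changes from -8.67 to -7.48. GATA6, an endoderm and mesoderm factor, stood at 91.4 and 166 CPM in 7 and 18 GFP-negative cells and at 0 and 0.904 CPM in GFP-high cells. EPCAM, an epithelial adhesion molecule, was seen in 5 and 3 GFP-negative cells. A single GFP-negative cell gave 91.5% of the UMIs of PRP4, 76.8% of those of MYL7 and 58.5% of those of C15H11orf34. With no replicate block PRP4, MYL7 and WFDC2 were not called (adjusted p = 0.15, 0.133 and 0.0963).

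Of 10 mesenchyme markers tested 7 were lower and 1 higher (median log2 -4.47), and the list summed to 9208 and 12368 CPM in GFP-negative against 273 and 412 CPM in GFP-high cells. COL1A1 fell from 2605 and 3079 to 21.3 and 45.2 CPM (log2 -6.77, SE 0.247, adjusted p = 2.24e-156, edgeR); in cells without a SOX2 UMI it had a like fold change, -6.40, but was not called (adjusted p = 0.179, edgeR). At 20% or more RPL/RPS HBZ was not called (log2 -0.59). All 6 erythroid markers were lower (median -5.47), led by the embryonic globin HBZ at 14051 against 325 CPM in replicate 2. The GFP-negative cells of this class were few and mixed: 6 and 15 of the 26 and 37 were mesenchyme-rich, all of the 6 and 11 yolk sac-rich cells among them, 2 and 3 were erythroid-rich, 1 and 5 were rich in surface ectoderm markers, and 18 and 17 were rich in none of the lists. Of GFP-high cells, 0 and 2 were mesenchyme-rich and 0 were erythroid-rich.

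For stress and energy genes the difference between the sides was itself lower than under 10% RPL/RPS: this held for 19 of 21 dissociation stress genes, 22 of 24 oxidative phosphorylation genes and 9 of 23 glycolysis genes, and the reverse for 0, 0 and 1. Of 20 dissociation stress genes 15 were lower and 0 higher (median log2 -1.74). FOSB, an immediate early gene, fell from 280 and 354 to 20.6 and 23.0 CPM (log2 -4.17), and JUN from 2051 and 2185 to 803 and 861 CPM (log2 -1.65). Of 12 mitochondrially encoded genes tested 11 were lower (median -2.27). Glycolysis stayed higher in part, with 7 of 23 higher and 1 lower (median 0.35); ENO1 rose from 863 and 696 to 2201 and 2337 CPM (log2 1.25), and was not called at 4000 to 8000 UMIs (0.89, adjusted p = 0.412, edgeR). Of 24 oxidative phosphorylation genes 8 were lower and 0 higher (median -0.43), and of 82 ribosomal protein genes 70 were lower (median -0.64), within the range that the 10% limit leaves. IGF2, an imprinted growth factor, fell from 646 and 1392 to 94.97 and 96.8 CPM (log2 -3.65).

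Without the marker-rich cells, 18 and 17 GFP-negative cells remained against 361 and 633, and 80 genes (0.715% of 11191) were higher and 154 (1.38%) lower. This set too was made after the results were seen, and the lists' own genes had to move. The neural difference remained in part. SOX2 had a log2 fold change of 3.95 (adjusted p = 0.00536, edgeR), MAP2 2.80, GAP43 3.56 and CTNNA2 2.53, all called. Of the progenitor markers 5 of 11 were higher, against 10 of 11 before the removal, and of the neuron markers 7 of 10 against 10 of 10. NTM, NOL4, POU3F3, EEF1A2, GNG3 and CCK kept their direction but were not called (adjusted p from 0.0528 for NTM to 0.0784 for CCK, edgeR). GATA6 (-7.82), EPCAM (-9.45), KRT19 (-3.52) and IGF2 (-3.05) were still lower. COL1A1 (-1.73, adjusted p = 0.1765, edgeR), HBZ (-0.40) and FOSB (-1.74) were not called, and of the stress list 1 of 19 was lower. Markers of other cell types and the mitochondrial share moved with the stress genes, and the part of the mitochondrial share was not tested.

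The change of a difference between the ribosomal classes was itself tested in 1 fit of 8 sums. Of 11626 genes, 786 (6.76%) had a higher and 1603 (13.8%) a lower GFP-high to GFP-negative difference in cells with 10% or more RPL/RPS, and 31.6% had an unadjusted p below 0.05. The lowest p-values belonged to the embryonic globins HBZ, HBE1 and HBE4 (log2 differences of the differences -5.53, -5.78 and -5.14), then to RPL31 and NPAS3. The 26 and 37 GFP-negative cells with 10% or more RPL/RPS held 2 and 3 erythroid-rich cells. Without marker-rich cells, the log2 fold change in that class was -0.40 for HBZ and 0.18 for HBE1. Neither was called there. The erythroid list, which holds both genes, helped choose the removed cells, so their differences had to shrink. The median HBZ count was 56 and 791 UMIs in erythroid-rich cells of any GFP class and RPL/RPS share. It was 2 and 1 in GFP-negative cells of any RPL/RPS share. The globin result may therefore depend on few cells, which was not tested apart from this removal. RPL31, a ribosomal protein gene, was higher in GFP-high cells under 10% (370 against 1389 CPM in replicate 1, 433 against 1494 CPM in replicate 2) and lower with 10% or more (6889 against 4171 and 5621 against 4234 CPM). The classes are cut on the sum that RPL31 belongs to. NPAS3, a neural transcription factor encoded by a long gene, was lower in GFP-high cells under 10% (1991 against 1111 and 1954 against 963 CPM) and higher with 10% or more (103 against 754 and 97.2 against 741 CPM). Its difference of differences was 3.43 (SE 0.225, adjusted p = 1.56e-10, edgeR), and the directions were opposite in both replicates.

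**Figure D5:**
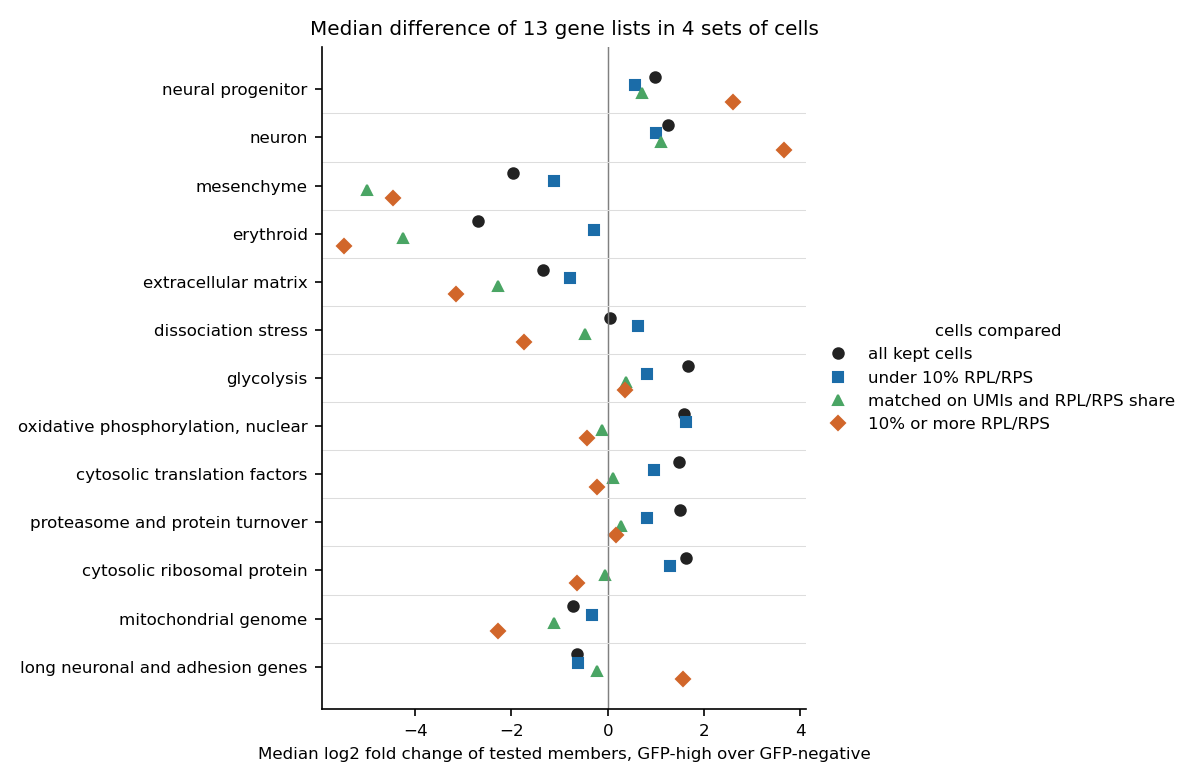
Median log2 fold change (GFP-high over GFP-negative) of the tested members of 13 gene lists in all kept cells, cells under 10% RPL/RPS, cells matched on UMIs and RPL/RPS share, and cells with 10% or more. Neural progenitor and neuron medians are above 0 in each set, from 0.57 to 3.67, whereas ribosomal protein medians run from -0.64 to 1.62.

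POU5F1 had 0 UMIs on both sides and NANOG had 1 UMI, in a GFP-negative cell. The list counts that follow stand beside 27.1% of all genes tested higher and 23.0% lower. Of 8 pluripotency genes tested in all cells 3 were higher and 3 lower (median log2 -0.16), among them the RNA-binding LIN28B, at 346 and 334 against 231 and 187 CPM (log2 -0.43; not called by DESeq2, adjusted p = 0.052). Of 12 HOX genes tested 2 were higher, HOXB2 and HOXA2 of the hindbrain, and 7 were lower (median log2 -4.55). DESeq2 did not call HOXA2 (adjusted p = 0.109) or HOXA5 (0.176); HOXA5, of more posterior levels, had 23 UMIs in GFP-negative cells and 0 in GFP-high cells, where it was at least 34.4-fold lower. Of 11 hedgehog pathway genes 7 were lower, GLI3 among them, and the ligand SHH was the 1 that was higher. Of 25 cell cycle genes 11 were higher and 5 lower; MCM5 and PCNA, of DNA replication, rose by 2.13 and 1.55, and the kinase CDK1 fell by 0.75 on the log2 scale, which DESeq2 did not call (adjusted p = 0.122).

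Of 27 BMP and TGF-beta genes tested in all cells, 17 were lower and 5 higher. The targets ID1 and ID3 were the leading higher members: ID3 rose from 135 and 163 to 694 and 723 CPM (log2 2.54) and ID1 from 237 and 417 to 1211 and 1302 CPM (log2 2.26). The receptor BMPR1B fell from 562 and 585 to 277 and 272 CPM (log2 -0.78), and the ligand BMP4 fell by 3.11 on the log2 scale. Of 28 WNT pathway genes 9 were higher and 7 lower, and of 16 Notch pathway genes 5 and 4, shares near the 27.1% and 23.0% of all genes. Among the WNT genes were the receptor FZD10 at 2.48 and 5.81 against 26.5 and 21.3 CPM (log2 2.75) and the R-spondin receptor LGR4 at 161 and 141 against 52.6 and 51.1 CPM (log2 -1.25). Of 18 genes of transgene silencing and chromatin 8 were higher and 3 lower (median 0.09), with TRIM28, a corepressor that silences retroelements, higher by 1.80.

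Most other marker lists had few tested members in all kept cells; the genes named from them here were chosen after their values were seen. Of 7 gut endoderm markers 2 were higher (SHH and FOXA2, which the floor plate shares) and 5 lower, among them GATA6 and EPCAM. FOXA2 rose from 108 and 102 to 256 and 258 CPM (log2 1.58). Of 5 surface and amnion ectoderm markers 2 were higher and 1 lower; GATA3 rose from 290 and 228 to 471 and 424 CPM (log2 1.08), and the keratin gene KRT19 fell from 420 and 1015 to 77.2 and 96.5 CPM (log2 -2.68). Of 4 neural crest markers 2 were higher, with TFAP2B at 24.0 and 24.0 against 63.0 and 56.7 CPM. Of 4 somitic markers 1 was higher and 3 lower; PAX3, also a dorsal neural tube factor, fell from 211 and 214 to 93.8 and 81.4 CPM (log2 -0.999). Of 6 lateral plate markers 1, HAND2, was higher and 3 were lower, HAND1 among them; HAND2 is also a factor of autonomic neurons. Endothelium had 1 of 3 higher and 1 lower, and myeloid markers had 1 of 2 lower. No maternal endometrial marker had enough counts to be tested, and their summed level was at most 6.61 CPM on either side. Of 21 dissociation stress genes 5 were higher and 4 lower (median log2 0.05), near the shares of all genes tested. Of 15 imprinted genes 8 were higher and 4 lower, and of 18 nuclear-retained and spliceosome genes 13 were higher and 1 lower (median 0.43). The counts in this paragraph stand beside 27.1% of all genes tested higher and 23.0% lower, so with few members they say little about a list.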

How the data were processed

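The deposited values were whole-number UMI counts per gene and cell from both samples, not normalized by the authors, per the file headers and values. Per the submitters' processing notes, Cell Ranger, R 4.1.2, Seurat 4.3.0 and the bosTau9 build were used; the version of Cell Ranger and the annotation were not stated there. Counts of the table's 17846 symbols, 499 of them without a count, were used as deposited, and 17337 of them matched a RefSeq table of gene names. Columns were matched to samples by the sample number in their names. No sequences are given, since no reference sequence was used here.

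Raw counts were summed per side and replicate (4 sums; 8 for the difference of differences), with 10 or more cells per sum. They were fitted with edgeR 4.0.16 in R 4.3.3 (TMM, filterByExpr, robust quasi-likelihood test, Benjamini-Hochberg at 0.05, GFP left out). Replicate was a block by construction, since both sides of a number come from 1 suspension. Fits of 4 sums had 1 residual degree of freedom and that of 8 sums had 3. The median prior was 14.3 degrees of freedom in all kept cells, infinite in cells with 10% or more RPL/RPS (97.3% of genes) and 21.1 for the difference of differences, so the spread is mostly pooled over genes, or wholly so. DESeq2 1.42.0 was an alternative, beside other GFP limits, windows, filters, scalings, strata and matched cells. Intervals are exact Clopper-Pearson at 95%; Python 3.11.15, numpy 2.4.6, pandas 2.3.3, scipy 1.17.1 and matplotlib 3.10.9 were used.

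The cell classes, the 33 gene lists and the tests were chosen with earlier results of these data known, and lists are described by counts and medians only. Genes were named by a rule: in each comparison the 12 largest log2 fold changes in each direction among called genes at 50 CPM or more on the higher side that moved the same way in both replicates, the 2 called members of each list with the lowest p in each direction, the 5 lowest p-values of the difference of differences, and a fixed set of marker genes by level. Some genes that the rule names are not reported here. Shares of cells with a UMI in mesenchyme-rich cells, and list counts for the difference of differences, were added after the results were seen. On simulated counts with 200 changed genes, the test in all kept cells recovered 51% of 2-fold and 95% of 4-fold changes. Of its calls 7.6% were false (12379 genes tested). In cells with 10% or more RPL/RPS it recovered 22% and 70%, and 1.1% of its calls were false (11151 genes tested). The simulation gave every gene the same dispersion and changed far fewer genes than the 50.2% called in all kept cells. Its rates therefore cannot be taken as the false share of the calls in these data.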

Additional observations from a re-analysis of the deposited data

Results flagged for a closer look

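The GFP-high to GFP-negative difference of 5 named genes differed between cells with 10% or more and under 10% RPL/RPS by the test of the difference itself. HBZ gave -5.533, HBE1 -5.782 and HBE4 -5.139 on the log2 scale; in cells under 10% RPL/RPS the sides of HBZ lay close together (409 and 348 CPM in GFP-negative, 335 and 301 CPM in GFP-high cells). RPL31 gave -2.813 and NPAS3 gave 3.427. The globins are near-identical, so reads may be divided among them. Their values may depend on few cells: 2 and 3 of the GFP-negative cells with 10% or more RPL/RPS were erythroid-rich.

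Cells above the upper limit of 12000 UMIs entered no comparison and also carried GFP. GFP-high cells made up 64.81% of them in replicate 1 (70 of 108 cells, exact 95% interval 55.0 to 73.8) and 65.99% in replicate 2 (130 of 197, 58.9 to 72.6). Under 3000 UMIs the shares were 6.60% (37 of 561) and 5.81% (37 of 637). A fixed limit of 5 GFP UMIs is reached more easily in deeper cells.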

How the results depend on the processing

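Directions of the neural genes SOX2 and STMN2 were the same under every alternative that could be run for them. Their sizes were not. In cells with 10% or more RPL/RPS, STMN2 had a log2 fold change of 4.28 in cells without a SOX2 UMI. From 20% RPL/RPS it was 1.00 (adjusted p = 0.0125, edgeR). At that limit SOX2, GAP43, MAP2, LMO3 and POU3F3 were called, and DCX, GNG3, EEF1A2, NEFM and NOL4 were not. Counts of called genes varied with the tool, the cells taken and depth. In all kept cells the numbers of genes higher and lower were 1888 and 1166 at 4000 to 8000 UMIs, 1833 and 1071 with DESeq2, 2199 and 1818 with matched UMI totals, 1623 and 1114 under 10% RPL/RPS, and 106 and 342 with matched UMI totals and RPL/RPS share. With no replicate block they were 3254 and 2581. In cells with 10% or more RPL/RPS they were 157 and 278 at 4000 to 8000 UMIs, 208 and 552 with DESeq2, 342 and 661 from 20% RPL/RPS, 328 and 498 with matched UMI totals, and 80 and 154 without marker-rich cells; with no replicate block 861 and 1150. For the difference of differences they were 446 and 950 with matched UMI totals, and 776 and 1593 with no replicate block. Other GFP limits, RLE factors, no filter, cells with or without a SOX2 UMI and tests without RPL/RPS and mitochondrial genes kept every count within 1.5 times. Fewer cells entered the matched, windowed and stratified sums, and why the counts differed was not tested.

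At 4000 to 8000 UMIs the GFP-high shares were 35.8% and 43.6%, those with 1 to 4 GFP UMIs 47.9% and 39.3%, and the GFP-negative share of replicate 2 was 17.2%. With each cell thinned to 3000 UMIs and GFP-high from 3 UMIs, the shares with fewer but some GFP UMIs were 30.1% and 25.7%, GFP-negative shares were 26.9% and 23.7%, and the GFP-high share of replicate 2 was 50.6%. The difference among cells with 10% or more RPL/RPS was not run within cells with a SOX2 UMI, which left 3 and 2 GFP-negative cells.

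These named genes changed direction (log2 values). In all kept cells, taking only cells with a SOX2 UMI turned RBP4 (1.12), APOA1 (1.59), KRT19 (1.68), KRT8 (2.40), COL3A1 (1.02), FOSB (0.26), NRXN3 (0.29), TEK (0.74) and PAX6 (-0.31), and cells without one turned TWIST1 (-0.67) and KRT18 (-1.45). Removal of marker-rich cells turned COL1A1 (0.10), COL1A2 (0.37), COL3A1 (0.89), A2M (0.73), HBZ (0.22), RBP4 (1.60), APOA1 (2.29), FOSB (0.42) and KRT8 (0.30). Matched UMI totals and RPL/RPS share turned TWIST1 (-0.35), KRT18 (-1.63), LIN28A (0.13), CDK1 (0.80), PLAGL1 (0.00052), MIB1 (0.0556), SLC16A1 (0.0232) and CBX5 (-0.0217), and 4000 to 8000 UMIs turned CDC6 (0.0635), MAP2 (-0.052) and TEK (0.10). In cells with 10% or more RPL/RPS, 20% or more turned HBE1 (0.30) and JAG1 (1.17), removal of marker-rich cells turned HBE1 (0.18), APOA1 (2.38), RBP4 (0.18) and GLI3 (0.61), and cells without a SOX2 UMI turned VIM (-0.26). The marker-rich removal and the joint matching were chosen after the data were seen; the cause of these turns was not tested.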
